A study of Arabidopsis thaliana with 148 samples.

Results

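The mRNA bound to ribosomes in Arabidopsis seedlings was compared 3 h after a heat treatment with that of seedlings never heated. The comparison used 6 of the 148 samples of the series, 3 recovery libraries and 3 control libraries of the recovery experiment, chosen by their labels for kind of RNA, time and treatment. All seedlings carried p35S:HF-RPL18, a transgene that expresses a tagged ribosomal protein L18 from the 35S promoter, which is active in most but not all plant cells. Translating ribosome affinity purification (TRAP) pulls down ribosomes through this tag, so the mRNA recovered is that of cells expressing the transgene, controls included. Seedlings grew on Murashige and Skoog medium with sucrose at 22 °C with 12 h of light and 12 h of darkness a day for 10 days, and were moved to constant light on day 11. On day 13 the recovery group was held at 37 °C for 1 h, ending at ZT54 (Zeitgeber time, in hours), returned to 22 °C and collected at ZT57. The control group stayed at 22 °C and was collected at the same time. The recovery experiment also had total mRNA from the same times, and samples at 0, 1 and 6 h after heat with controls of their own.

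When a plant cell is heated, proteins unfold, and heat shock factors, a family of transcription factors, bind heat shock elements in the promoters of chaperone genes. Small heat shock proteins hold unfolded proteins, HSP101 pulls aggregates apart, and the HSP70 and HSP90 machines refold their clients. In Arabidopsis seedlings, a mild heat treatment is also known to leave a lasting tolerance to later heat, for which HSFA2, HSA32, HSP21 and others are required.

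The control libraries held 6829853, 5606905 and 4193134 counts and the recovery libraries 5504219, 7567837 and 6955675. Control 1 stood apart. Its log2 counts per 1000000 counts of the library (CPM) correlated with the other controls at 0.906 and 0.92, against 0.978 between controls 2 and 3, and the SD of its log2 differences from them was 0.755 and 0.697, against 0.363 between those libraries. RPL18, the gene whose coding sequence the transgene also carries, stood at 1616 CPM in control 1 (here on total counts), against 4361.8 to 7420.4 CPM in the other 23 TRAP libraries of the recovery experiment and 1175.3 to 1360.7 CPM in the 3 total mRNA controls at 3 h. Values without control 1 are therefore given beside the results, for a named gene where its call ended or its fold moved by over 1.5 times. The share of counts in small heat shock protein genes was not raised in control 1 (0.00797%, against 0.00562% and 0.00747% in controls 2 and 3). A TRAP control at 6 h (replicate 2) carried 0.696% of its counts in these genes, against 0.0137% at most in the other TRAP controls of the experiment, and correlated better with the 3 h recovery libraries (mean 0.986) than with its own group (0.943). That library was left out of the tests below and of their shared estimate of spread, except in an alternative fit that is said to include it. The total mRNA control 2 of 6 h was alike, with 0.404% against 0.00798% and 0.00784% in its group, and it stayed in the estimate for total mRNA, so those results are also given without it.

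The 3 h of recovery left a ribosome-bound mRNA pool that still differed from the control in many genes, mostly by little. Of 20847 genes tested, 1934 (9.28%) passed an adjusted p of 0.05 in edgeR's quasi-likelihood test, 794 higher (3.81%) and 1140 lower (5.47%). The median log2 fold change, recovery against control, was 0.64 among the genes that rose and -0.83 among those that fell, and -0.01 over all genes tested. More than 2-fold changes were found in 169 of the risen and 419 of the fallen genes, and more than 4-fold changes in 36 and 60. The recovery libraries did not overlap the controls in 762 of the risen and 926 of the fallen genes. Over all genes tested, 11% had every recovery library above every control and 10.2% had every one below.

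The number of genes called rested on single libraries. Without control 1 it was 1014 of 20782 (4.88%), with 428 higher (2.06%) and 586 lower (2.82%), of which 329 and 430 were among the calls made with all controls. Leaving out control 2 gave 4993 calls and leaving out control 3 gave 3421, and leaving out recovery 1, 2 or 3 gave 1218, 725 or 865. The labels do not say whether replicates were grown separately, and the p-values reflect no more than the variation among these libraries, which may be technical. Whole seedlings were collected, and fewer cells of a type cannot be told apart from less RNA per cell.

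Small heat shock protein genes had the largest median change of the 36 gene lists examined. Of 16 members, all tested, 14 rose and none fell, with a median log2 fold change of 4.87. In 14 of them every recovery library lay above every control. Without control 1, 13 rose, with a median of 5.81 when members at or near 0 counts in the controls are set to their counting bound. These genes together took 0.00702 ± 0.00124% of the counts in the controls and 0.58 ± 0.0745% in recovery (mean ± SD, n = 3 each; two-sided exact permutation test, p = 0.1, the smallest that 3 against 3 allows).

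**Figure D1:**
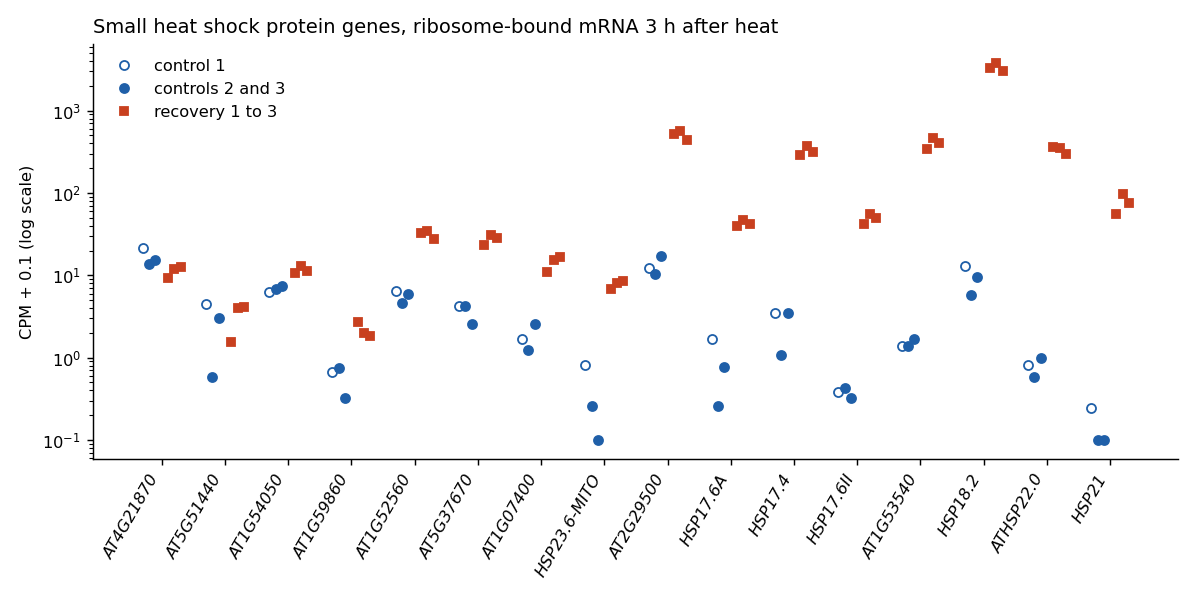
Levels of the 16 small heat shock protein genes in ribosome-bound mRNA 3 h after heat, in CPM plus 0.1 on a log axis, with 1 point for each library, ordered from the lowest to the highest log2 fold change. Controls are circles (open for control 1) and recovery libraries squares, and in 14 genes all squares lie above all circles, as for HSP18.2, with 3022 to 3811 CPM against 5.64 to 13.0.

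HSP18.2 (AT5G59720, chromosome 5, 24062323 to 24063300, TAIR10.1 coordinates), a cytosolic class I protein, was found at 13.0, 5.64 and 9.40 CPM in the controls and at 3343, 3811 and 3022 CPM in recovery. The 2 groups were far apart and the controls differed among themselves by little in comparison. Its log2 fold change was 8.49 ± 0.37 (SE; adjusted p 1.35e-11), and 8.84 without control 1. ATHSP22.0, whose protein resides in the endoplasmic reticulum, had 0.715, 0.484 and 0.896 CPM in the controls and 358, 354 and 295 CPM in recovery, a log2 fold change of 8.91 ± 0.57 (adjusted p 2.09e-08). HSP21, the chloroplast member, had 1 count in control 1 and none in controls 2 and 3, and 54.9, 95.9 and 75.0 CPM in the recovery libraries. The ratio of its summed counts, scaled to library size, was 1421 (exact 95% interval 255 to 56148, counting error only). Without control 1 it was at least 279-fold higher in recovery, taking 3 counts over the controls as the floor.

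The other cytosolic members rose as well. HSP17.4 (class I) rose from 2.586 ± 1.402 to 325 ± 40.9 CPM, AT1G53540 (class I) from 1.38 ± 0.161 to 404 ± 60.7 CPM and AT2G29500 (class I) from 13.2 ± 3.59 to 511 ± 58.9 CPM (mean ± SD, n = 3). HSP17.6II and HSP17.6A, of class II, reached 48.9 ± 6.77 and 42.8 ± 3.91 CPM from controls at 0.277 ± 0.0498 and 0.802 ± 0.715 CPM. Without control 1 the log2 fold change of HSP17.6A was 6.75 in place of 5.64. Members of the group are similar in sequence, and how reads matching several of them were counted is not given in the sources used here. HSP23.6-MITO, of the mitochondria, had a log2 fold change of 4.45 ± 0.47 (its ratio of counts without control 1, which held 5 of the 6 control counts, was 84.2, exact interval 14.9 to 3343), and AT5G37670, of the peroxisome, of 2.88 ± 0.19. The smallest change called was that of AT1G54050, at 0.79 ± 0.18. AT1G59860 (log2 fold change 1.97) lost its call without control 1 (adjusted p 0.091). The 2 members not called were AT4G21870, at -0.59 (adjusted p 0.102), and AT5G51440, at 0.28 (adjusted p 0.739; 1.07 and 0.436 without control 1). HSP17.4 shares its place on chromosome 3 with AT3G07365, an RNA on the other strand at 16984335 to 16984787, which rose by 8.61 ± 0.45 on the log2 scale. The counting is not stated to use strand, so reads of these genes cannot be told apart.

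The genes known for heat memory rose in 10 of 12 cases, and 1 fell (9 and 1 without control 1). The list shares HSP21 and ATHSP22.0 with the small heat shock proteins, and HSP101, HSA32, ROF1 and AT5G48570 with the chaperones below. APX2, a cytosolic ascorbate peroxidase, had 0.572, 0.323 and 0.448 CPM in the controls and 16.7, 16.9 and 13.2 CPM in recovery, a log2 fold change of 5.05 ± 0.32 (adjusted p 2.8e-11). FTSH6, a plastid protease known to degrade HSP21, rose by 3.06 ± 0.65 from 4 counts in all controls to 45 in recovery. Without control 1 it had 1 control count and a ratio of 22 (exact interval 3.76 to 889). HSA32, needed to keep acquired tolerance, rose by 2.47 ± 0.19, from 3.22 ± 0.142 to 17.9 ± 2.18 CPM. MBF1C, a transcriptional coactivator, rose by 0.69 ± 0.16. HSFA2 itself was not called: it stood at 1.29, 0.161 and 0 CPM in the controls and at 0.647, 1.18 and 1.34 in recovery, with control 1 inside the recovery range (log2 fold change 0.92, adjusted p 0.384). Without control 1 its counts were 24 in recovery against 1, a ratio of 11.7 (exact interval 1.92 to 483), and its adjusted p was 0.101.

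The larger chaperones and their helpers split. Of 36 members, 10 rose and 7 fell, with a median log2 fold change of 0.00 (8 and 8, and 0.05, without control 1). The risen members included heat-inducible forms. HSP90.1, the inducible cytosolic HSP90, stood at 5.15, 6.13 and 4.93 CPM in the controls and at 14.7, 23.2 and 22.4 in recovery, a log2 fold change of 1.90 ± 0.20 (adjusted p 2.63e-07). The groups did not overlap. HSP70 (AT3G12580) rose by 1.46 ± 0.17, Hop3, which links HSP70 to HSP90, by 2.46 ± 0.16, and AT5G48570, an HSP90-binding immunophilin also called ROF2, by 2.42 ± 0.18. HSP101 was 6.43, 6.45 and 6.72 CPM in the controls and 9.55, 11.7 and 9.66 CPM in recovery. Its log2 fold change of 0.66 ± 0.20 passed with all controls (adjusted p 0.0406) and not without control 1 (0.64, adjusted p 0.135). In the organelles, the chloroplast HSP90 CR88 rose by 0.90 ± 0.15, the chloroplast HSP70 cpHsc70-1 by 0.51 ± 0.11 and the mitochondrial chaperonin HSP60-3A by 0.58 ± 0.15, the last not called without control 1 (adjusted p 0.0795).

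Among the 7 that fell were HSP70 and HSP90 genes known as constitutive (cognate) forms. At 0 h, though, 33 of the 36 list members were higher than their controls and none was lower. Hsp70-2 (AT5G02490) had 3.57, 6.29 and 6.05 CPM in the controls and 1.29, 0.944 and 0.939 in recovery, a log2 fold change of -2.30 ± 0.29 (adjusted p 6.38e-06). AT3G09440, also a cognate HSP70, fell by 1.52 on the log2 scale (SE 0.19), HSC70-1 by 0.89 (SE 0.21) and the cytosolic HSP90 HSP81-3 by 0.85 (SE 0.15). In each of these genes control 1 lay lowest among the controls, and without it the log2 fold changes were -2.564 for Hsp70-2, -1.804 for AT3G09440, -1.224 for HSC70-1 and -1.069 for HSP81-3. In HSC70-1 control 1, at 189 CPM, lay within the recovery range of 170 to 237 CPM. ROF1, a close relative of AT5G48570, moved the other way from it: 64.3, 66.1 and 63.1 CPM in the controls against 31.2, 29.7 and 31.1 in recovery, a log2 fold change of -1.07 ± 0.12 (adjusted p 6.32e-07). J3, a DnaJ partner of HSP70, fell by 0.48 (SE 0.14). HSBP, which binds heat shock factors, fell by 0.61 (SE 0.16) with all controls and was not called without control 1 (adjusted p 0.163).

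Genes for folding in the endoplasmic reticulum were lower or not called. Of 23 tested, none rose and 5 fell, with a median of -0.05 (none and 9, and -0.09, without control 1). DESeq2 called no risen member either, and none had an unadjusted p below 0.05 in that direction. CNX1, a calnexin, fell by 0.81 (SE 0.13), BIP2, an HSP70 of the endoplasmic reticulum, by 0.74 (SE 0.17), and CRT1b, a calreticulin, by 0.43 (SE 0.11). BIP3 and TIN1, known markers of unfolded protein stress in this compartment, stayed below 1 CPM in all 6 libraries and were not called (adjusted p 0.96 and 0.735).

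**Figure D2:**
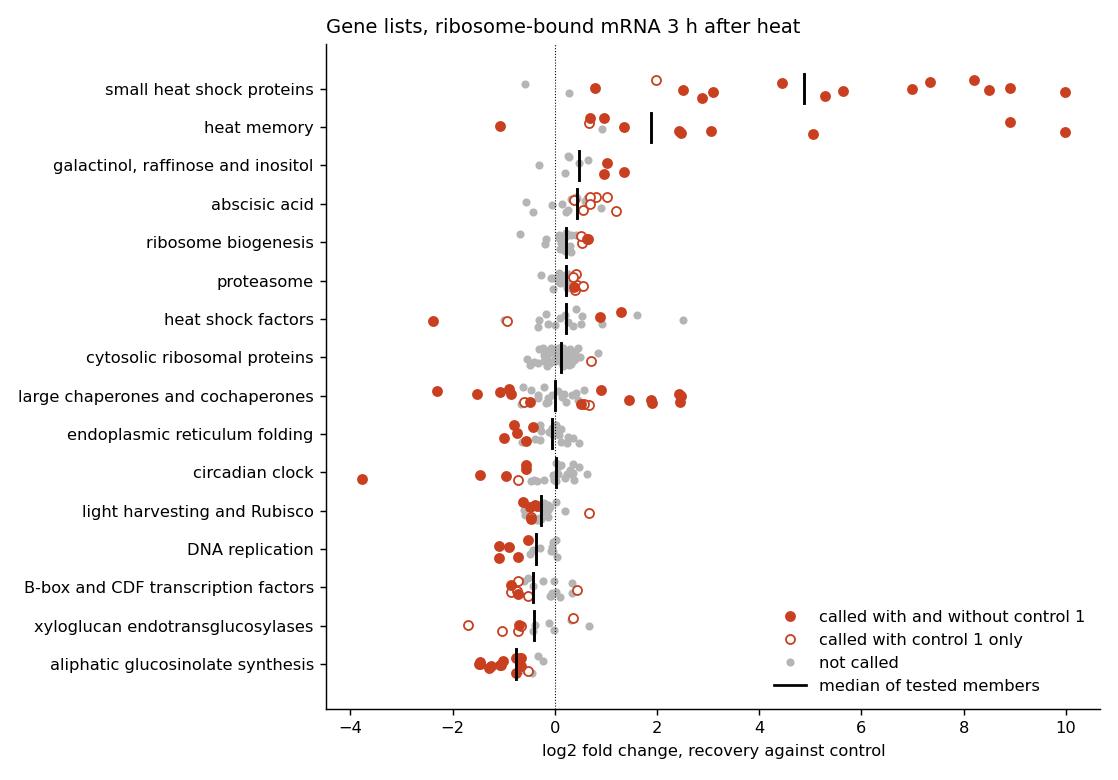
Log2 fold change of each tested member of 16 gene lists, recovery against control, in ribosome-bound mRNA 3 h after heat, with the median of each list as a bar. Filled red points were called with and without control 1, open red points with all controls but not without control 1, and the medians run from 4.87 for small heat shock proteins to -0.76 for aliphatic glucosinolate synthesis.

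Among heat shock factor genes, 20 of 21 were tested, of which 2 rose and 2 fell (2 and 1 without control 1). The risen genes were 2 of class B, a class known for repressors. HSFB2A had 8.86, 13.4 and 8.51 CPM in the controls and 22.65, 26.54 and 26.44 in recovery, with no overlap, and a log2 fold change of 1.29 ± 0.17 (adjusted p 9.62e-06). HSF4, also called HSFB1, rose by 0.88 ± 0.11, from 79.3 ± 2.39 to 146 ± 8.67 CPM. HSFA7A, a class A factor that heat induces, was below its controls: 11.3, 14.5 and 9.40 CPM against 1.29, 2.36 and 2.95, a log2 fold change of -2.39 ± 0.33 (adjusted p 7.38e-05). HSFB4 fell by 0.93 (SE 0.25) and lost its call without control 1. HSFA1D, one of the factors that start the response, was not called (log2 fold change 0.00 ± 0.21, adjusted p 0.997). Of 14 rapid stress transcription factors, DREB2A, which acts in drought and heat, rose by 0.99 ± 0.17, and so did MBF1C, as given above. NAC042 fell by 1.51 (SE 0.47) and was not called without control 1 (adjusted p 0.062).

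The promoters of 3 genes are shown because heat shock factors bind such elements and because these genes, which share the element, did not move alike. Each is the 300 bases before the annotated gene start in RefSeq TAIR10.1, on the gene's own strand, with no other gene in the window. Capitals mark matches to the 3-unit heat shock element GAANNTTCNNGAA or to its reverse complement TTCNNGAANNTTC. HSP17.4 lies at chr3:16984868-16985167 on the minus strand, HSFA7A at chr3:19264841-19265140 on the plus strand and GolS1, a galactinol synthase gene, at chr2:19370479-19370778 on the minus strand.
HSP17.4: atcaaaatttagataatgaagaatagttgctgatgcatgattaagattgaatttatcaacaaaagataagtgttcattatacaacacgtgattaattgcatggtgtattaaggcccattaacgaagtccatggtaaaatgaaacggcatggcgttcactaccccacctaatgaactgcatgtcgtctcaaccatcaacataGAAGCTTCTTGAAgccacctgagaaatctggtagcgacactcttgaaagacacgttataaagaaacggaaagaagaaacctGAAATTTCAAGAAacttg
HSFA7A: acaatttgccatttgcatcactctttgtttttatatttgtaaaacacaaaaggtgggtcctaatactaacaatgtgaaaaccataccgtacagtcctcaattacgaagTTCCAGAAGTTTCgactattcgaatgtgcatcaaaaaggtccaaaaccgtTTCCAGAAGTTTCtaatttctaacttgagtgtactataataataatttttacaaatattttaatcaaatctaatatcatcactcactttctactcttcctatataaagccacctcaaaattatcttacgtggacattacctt
GolS1: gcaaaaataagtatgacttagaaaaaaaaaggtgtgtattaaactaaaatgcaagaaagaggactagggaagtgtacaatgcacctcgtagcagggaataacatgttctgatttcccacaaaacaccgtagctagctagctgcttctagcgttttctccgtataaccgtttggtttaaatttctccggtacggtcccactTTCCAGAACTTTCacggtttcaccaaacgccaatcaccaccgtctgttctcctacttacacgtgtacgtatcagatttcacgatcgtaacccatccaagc
HSP17.4 and HSFA7A held 2 matches each and GolS1 held 1. Their log2 fold changes were 6.98, -2.39 and 1.35. The 13-letter element occurred in 133 of 27443 promoters of all protein-coding genes (0.485%) and in 109 of the 20748 tested (0.525%). It was present in 12 of 791 promoters of risen genes (1.52%), 5 of 1136 of fallen genes (0.44%), 2 of 16 small heat shock protein genes (12.5%) and 3 of 20 heat shock factor genes (15%). The shorter 2-unit element, GAANNTTC or TTCNNGAA, which every longer match contains, occurred in 19.3% of all promoters and in 7 of the 16 small heat shock protein genes (43.8%). A match is a run of letters in this window and was not tested as a binding site.

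Genes for protective sugars were among those that rose. Of 9 genes for galactinol, raffinose and inositol, 3 rose and none fell, with and without control 1. GolS1, which makes galactinol, the precursor of raffinose, had 67.6, 75.2 and 92.7 CPM in the controls and 203, 191 and 205 in recovery, a log2 fold change of 1.35 ± 0.14 (adjusted p 1.99e-07). Every recovery library was above every control. MIPS2, which makes inositol phosphate, rose by 0.96 ± 0.15, and SIP2, of the raffinose synthase family, by 1.02 ± 0.15. TRAP controls of a separate time course, also at ZT57, held SIP2 at the level of recovery, on total counts and with no test. They had 54.2, 57.4 and 59.3 CPM, against 56.3, 59.7 and 53.3 in recovery and 20.5, 30.3 and 30.5 in the 3 h controls. GolS1 (101.3 to 141.7 CPM) and MIPS2 (36.5 to 47.5 CPM) were lower in those time-course controls than in recovery (213.9 to 227.6 and 64.1 to 79.9 CPM). Genes of abscisic acid and of cold and dehydration were called higher with all controls and mostly not without control 1. Of 21 abscisic acid genes 7 rose with all controls, among them HAI2 (1.196 ± 0.281) and LTI78 (1.02 ± 0.31), and none without control 1, when the median went from 0.43 to 0.17. LTI78 shows this: 42.7 CPM in control 1, 130 and 94.3 in controls 2 and 3, and 204, 175 and 161 in recovery. Of 11 cold and dehydration genes 3 rose and 1 did so without control 1, COR47, a dehydrin, at 502, 1126 and 875 CPM in the controls and 1696, 1986 and 1937 in recovery (log2 fold change 1.17 ± 0.19, and 0.89 without control 1).

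Genes of protein synthesis and breakdown moved little, and most of their calls were not made without control 1. That library had 1.09% of its counts in cytosolic ribosomal protein genes, against 1.81% and 1.96% in controls 2 and 3 and 1.78 to 2.05% in recovery. Of 69 such genes 1 rose, RPL3B (0.71 ± 0.18), which was not called without control 1. Of 23 ribosome biogenesis genes 4 rose with all controls and 2 without control 1, AT5G27120 (NOP58-1, a nucleolar protein of snoRNA particles; 0.63 ± 0.12) and AT3G03920 (GAR1, of the same kind; 0.65 ± 0.15). Of 24 proteasome genes 6 rose with all controls and 2 without control 1, of 15 translation factors 2 and none, and of 16 autophagy and polyubiquitin genes NBR1 rose and ATG8C fell, neither without control 1. Among 6 splicing factors SR30, RS40 and RS41 rose, and SR30 alone did so without control 1, at 23.4, 24.83 and 23.51 CPM in the controls and 52.1, 58.9 and 55.7 CPM in recovery (log2 fold change 1.22 ± 0.12, adjusted p 7.58e-08).

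The pathway of aliphatic glucosinolates, the methionine-derived defence compounds of the cabbage family, was lower as a group. Of 18 genes, 14 fell and none rose, with a median log2 fold change of -0.76, against -0.01 over all genes tested. In 15 every recovery library lay below every control, and the log2 fold change was negative in all 18. Without control 1, 12 fell and the median was -0.81. DESeq2 also called 14 lower and none higher, and no member had an unadjusted p below 0.05 in the higher direction.

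The fallen genes included members of each stage of the pathway. BCAT4, which starts the lengthening of methionine, had 228, 212 and 241 CPM in the controls and 105, 70.3 and 70.5 in recovery, a log2 fold change of -1.47 ± 0.18 (adjusted p 6.81e-06). IMD1 and MAM1, of the chain elongation cycle, fell by 1.47 (SE 0.17) and 1.29 (SE 0.16). CYP79F1, which opens the core pathway, had 79.3, 86.0 and 94.0 CPM in the controls and 44.98, 25.36 and 23.22 in recovery, a log2 fold change of -1.48 ± 0.23. Recovery 1 was the highest of the recovery libraries in each of these genes and still below every control. SUR1, a C-S lyase, fell by 0.66 (SE 0.14), the sulfotransferase SOT17 by 1.02 (SE 0.17) and the side chain oxygenase FMO GS-OX1 by 1.06 (SE 0.21). MYB29, a transcription factor of the pathway, fell by 0.66 (SE 0.16). HMT3, a homocysteine methyltransferase that makes methionine, is not on the list. It was among the 15 lowest changes that passed the filters for naming genes given below. It stood at 23.3, 30.8 and 28.9 CPM in the controls and 8.74, 3.19 and 5.10 in recovery (log2 fold change -2.33 ± 0.33).

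**Figure D3:**
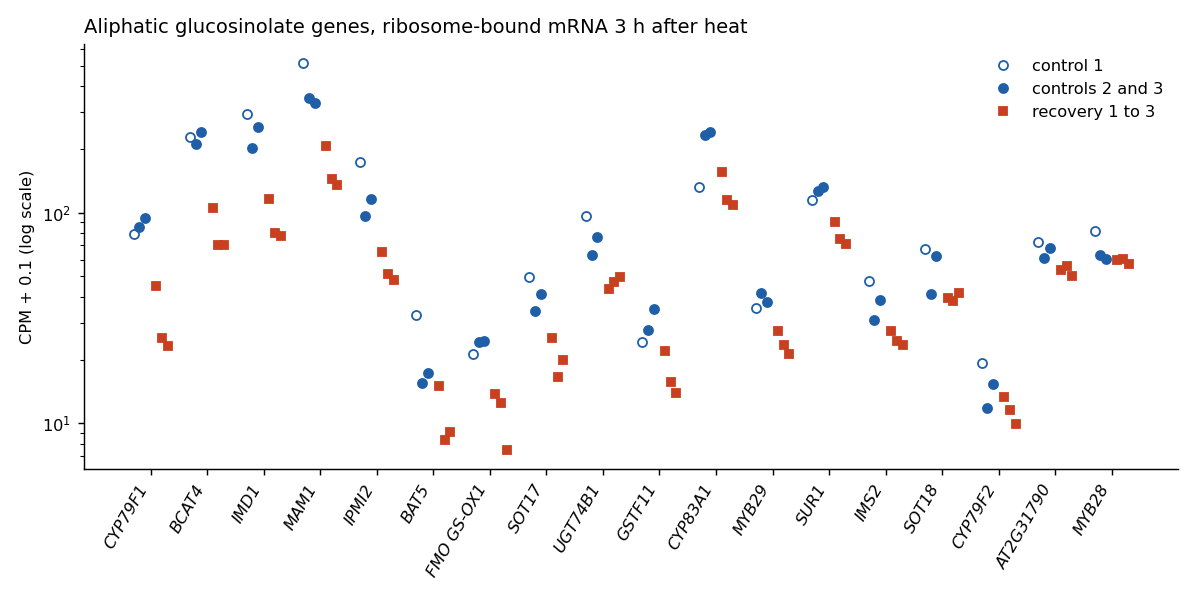
Levels of the 18 aliphatic glucosinolate genes in ribosome-bound mRNA 3 h after heat, in CPM plus 0.1 on a log axis, with 1 point for each library, ordered from the lowest to the highest log2 fold change. Controls are circles (open for control 1) and recovery libraries squares, and in 15 genes all squares lie below all circles.

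Of 28 circadian clock genes none rose and 6 fell (1 and 6 without control 1). DESeq2 called 1 higher, and 4 had an unadjusted p below 0.05 in that direction. LHY, a morning MYB factor of the central loop, had 27.0, 36.0 and 25.5 CPM in the controls and 3.07, 1.53 and 2.01 in recovery. Its log2 fold change of -3.78 ± 0.22 (adjusted p 6.7e-12) was the lowest of all list members. TRAP controls of the separate time course held LHY at 22.7, 20.4 and 21.5 CPM at the same ZT57, on total counts and with no test across the tables. The first of those controls also held more heat shock protein mRNA, with HSP101 at 51.95 CPM against 13.72 and 11.78 in the others. CCA1, the partner of LHY, moved far less, at 17.0, 33.7 and 28.7 CPM in the controls and 17.5, 16.6 and 19.1 in recovery, and control 1 lay within the recovery range (-0.57 ± 0.17, adjusted p 0.0391; -0.84 without control 1). RVE8, a related MYB activator, fell by 1.46 (SE 0.26), its relative LCL1 by 0.72 (SE 0.17), not called without control 1 (adjusted p 0.062), and the coactivators AT3G54500 (LNK2) and AT3G12320 (LNK3) by 0.56 (SE 0.14) and 0.95 (SE 0.20). The time-course controls did not bear out all of these falls, on total counts and with no test. AT3G12320 had 11.16 to 13.52 CPM there and 10.93 to 13.26 in recovery, and RVE8 6.342 to 8.434 and 3.019 to 6.359. CCA1 (22.45 to 25.65 and 18.63 to 20.41 CPM) and LCL1 (37.46 to 39.36 and 32.78 to 35.68) stayed lower in recovery. TOC1, PRR7, PRR9 and GI, other parts of the clock, were not called, with log2 fold changes from -0.35 for PRR9 to 0.32 for GI. Of 21 B-box and CDF transcription factor genes 6 fell and 1 rose (3 and none without control 1), with STH, a B-box protein, at -0.86 ± 0.16 and AT5G62430 (CDF1) at -0.71 ± 0.15 among those called both ways. In STH and AT5G62430 the recovery libraries overlapped the time-course controls on total counts. AT5G62430 had 14.39 to 18.93 CPM in those controls and 13.35 to 14.72 in recovery.

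Photosynthesis genes were slightly lower. Of 25 genes of light harvesting and Rubisco 6 fell and 1 rose, with a median of -0.27 (8 and none, and -0.24, without control 1). LHCB5, an antenna protein of photosystem II, had 3183, 3122 and 3257 CPM in the controls and 2498, 2483 and 2561 in recovery, a log2 fold change of -0.34 ± 0.10 (adjusted p 0.0257). The list took 9.48 ± 0.327% of the counts in the controls and 8.19 ± 0.219% in recovery (n = 3 each, exact permutation p = 0.1, the smallest possible). Of 12 chlorophyll synthesis genes 2 fell, CHLI1 and G4, neither without control 1. None of 6 photoprotection genes was called by edgeR or DESeq2, and 2 had an unadjusted p below 0.05.

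In genes of growth, 5 of 14 DNA replication genes fell and none rose, with and without control 1. All 5 encode histone H3.1, in near-identical copies between which reads may be split, with log2 fold changes from -0.52 to -1.10. AT5G10400 had 74.5, 49.8 and 70.5 CPM in the controls and 37.7, 29.0 and 24.4 in recovery. CYCB2;2, a mitotic cyclin, was the only one of 11 mitotic genes called (-0.93 ± 0.24), and 2 of the 11 fell without control 1. Of 12 xyloglucan endotransglucosylases, enzymes that remodel the cell wall, 5 fell and XTH31 rose, and without control 1 XTH18 fell and 1 other gene rose. Of 17 genes of PIF and auxin growth PIF3, a light-signalling factor, rose by 0.74 ± 0.17 with and without control 1, while YUC9 (1.604) and XTH15 (-1.03) were called only with all controls.

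Of the remaining lists, jasmonate genes had 1 fall in 18 (VSP1, a storage protein, -1.03 ± 0.14), aquaporins had RD28 higher (0.68 ± 0.14) and PIP1;5 lower in 13, and starch degradation had AT3G23920 (BAM1) higher in 14. Over all genes tested 3.81% rose and 5.47% fell, so a single call does not set such a list apart. Without control 1 VSP1 and RD28 kept their calls, and 1 other starch gene was called lower. Of 13 genes of reactive oxygen scavenging 2 rose, APX2 and FSD2, a chloroplast superoxide dismutase (0.51 ± 0.13). None of 9 touch and wounding, 11 low oxygen, 7 fatty acid desaturase or 10 flavonoid genes was called by edgeR or DESeq2, with 2, 2, 0 and 0 of them at an unadjusted p below 0.05. Without control 1, 2 desaturase genes were called lower. NRT2:1, a nitrate transporter, had 0 counts in the controls and 24 in recovery, at least 6.64-fold higher against 3 counts over the group (at least 3.91-fold without control 1), and NIA1, a nitrate reductase, fell by 0.59 (SE 0.18) with all controls and was not called without control 1 (adjusted p 0.0898).

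Markers of organs were measured beside these groups. Root markers took 0.232 ± 0.0244% of the counts in the controls and 0.152 ± 0.00773% in recovery, shoot markers 2.25 ± 0.292% and 1.78 ± 0.0743% (n = 3 each, exact permutation p = 0.1 in each case, the smallest possible). Of 7 root markers tested of 10, NRT2:1 rose and 2 fell, PYK10 (-0.67 ± 0.12) and IRT1 (-1.396 ± 0.383), and of 7 shoot markers tested of 8, LHCB3 and RBCS1A fell. Nearly all of the root share was PYK10, at 2458, 2355 and 2004 CPM in the controls and 1523, 1393 and 1529 in recovery (on total counts). RBCS1A was the largest part of the shoot share, at 16680, 11520 and 14130 CPM and 11100, 11050 and 9803 CPM. The summed shares thus largely restate these genes and are no measure of the amount of an organ. IRT1 and RBCS1A were not called without control 1 (adjusted p 0.214 and 0.0628). Their part in the results above was not tested. Organelle genes took 0.0912% of the counts in control 1, against 0.394% and 0.408% in the other controls and 0.256 to 0.565% in recovery.

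Outside the lists, AT1G72660, a P-loop nucleoside triphosphatase, rose from 1.08 ± 0.0955 to 8.18 ± 0.545 CPM (log2 fold change 2.90 ± 0.28, adjusted p 5.74e-08). PDF1.2b, a plant defensin, had 14.4, 4.68 and 6.94 CPM in the controls and 0.324, 0.118 and 0.537 in recovery, the lowest log2 fold change among the named genes at -4.72 ± 0.91 (adjusted p 0.0035), and at -4.11 (adjusted p 0.0406) without control 1. Its level varied widely among unheated TRAP libraries. On total counts it was 0.817 to 2.16 CPM in the 0 h controls and 0.356 to 2.62 in the 1 h controls. The time-course controls of ZT57 had 0.933 to 1.61 CPM, and the 6 h controls 1 and 3 had 2.37 and 17.9. AT3G00170 and AT3G01295, unnamed RNAs that overlap on opposite strands of chromosome 3, fell by 3.61 (SE 0.29) and 3.43 (SE 0.33), and their reads cannot be told apart. GASA5, a gibberellin-regulated peptide gene, fell by 3.28 (SE 0.43), with control 1 highest at 21.6 CPM against 6.29 and 10.3 in the other controls (2.62 without it). The seed protein gene M17, of the late embryogenesis abundant kind, fell by 2.11 (SE 0.34), and BGLU19, a beta-glucosidase, by 2.03 (SE 0.24). On total counts and with no test, the time-course controls held M17 at 0.2386 to 2.729 CPM, below its 3.303 to 3.634 in recovery. They held BGLU19 at 5.726 to 14.39 CPM, around its 10.06 to 10.9 in recovery. GASA5 (2.233 to 5.248 CPM) and AT3G00170 (5.085 to 7.515) were higher there than in recovery (0.925 to 1.869 and 1.057 to 1.581), as was AT3G01295.

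Fewer genes were called in total mRNA of the same time, but in another fit. The calls on ribosomes came from the fit over TRAP libraries alone, so the numbers and shares of calls compare unlike fits. Of 21737 genes tested in a fit over both kinds of RNA, 282 were called in total mRNA (1.3%), 144 higher (0.662%) and 138 lower (0.635%). Genes higher in both kinds numbered 101, which is 12.7% of those that rose on ribosomes and 71.6% of the 141 that rose in total mRNA and were tested on ribosomes. Genes lower in both numbered 110, which is 9.65% of those that fell on ribosomes and 80.9% of the 136 lower in total mRNA and tested on ribosomes, and none was called in opposite directions. Without the total mRNA 6 h control 2, a choice made after the data were seen, 384 of 21725 genes were called in total mRNA (1.77%), 195 higher (0.898%) and 189 lower (0.87%), among them all 282. Then 135 were higher and 137 lower in both kinds (17% and 12% of those called on ribosomes, 70.3% and 73.7% of the 192 and 186 called in total mRNA and tested on ribosomes). For the difference itself, ribosome-bound minus total, edgeR called 0 of 21737 genes (2141 had an unadjusted p below 0.05), and DESeq2 called 2. Without control 1 it called 0 of 21683 (696 at an unadjusted p below 0.05). Without the total mRNA 6 h control 2 it called 0 of 21725 (2243), and without both libraries 0 of 21686 (776). The count rested on the controls: without TRAP control 2 it was 627, and without TRAP control 3 it was 14.

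**Figure D4:**
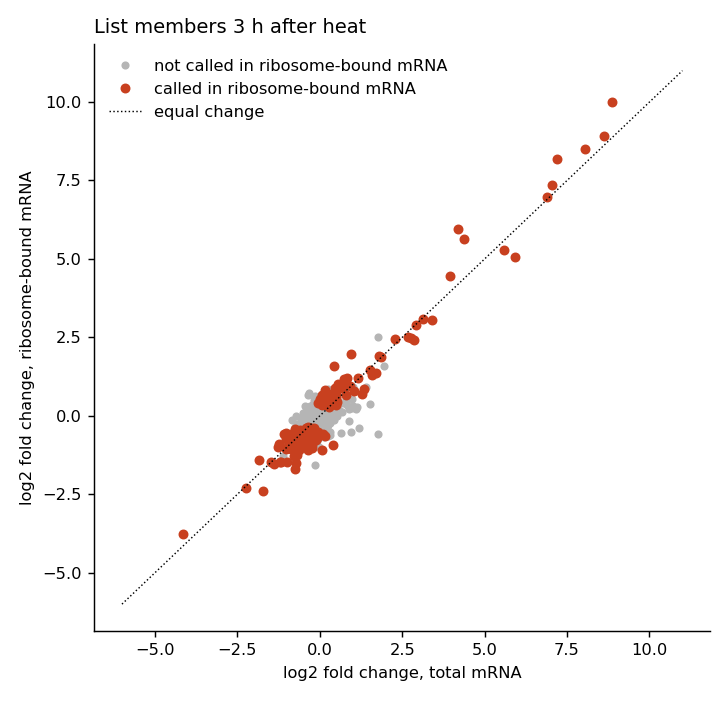
Log2 fold change 3 h after heat in ribosome-bound mRNA against that in total mRNA for 573 list members, with the dotted line at equal change. Members called in ribosome-bound mRNA are red, and 130 of these 135 had the same sign in total mRNA. The members not called were not counted in this way, so no background share stands beside that number.

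The log2 fold change of HSP18.2 in total mRNA was 8.05, that of LHY -4.14 and that of GolS1 1.69. Without the total mRNA 6 h control 2, the difference, ribosome-bound minus total, was 0.43 ± 0.45 for HSP18.2, 0.36 ± 0.52 for LHY and -0.67 ± 0.48 for HSFA7A (SE). With that library in, the SE of the difference was 1.52 for HSP18.2, 0.78 for LHY and 0.55 for HSFA7A, and no difference was called with it or without it. Other genes had values further apart. AT3G00170 was at -1.75 in total mRNA and -3.61 on ribosomes, PDF1.2b at -2.33 and -4.72, and MBF1C at 1.27 and 0.69. HSFB4 was at 0.39 in total mRNA, where it was not called (adjusted p 0.782), and at -0.93 on ribosomes. Small heat shock proteins had 13 of 16 called higher in total mRNA, with a median of 4.16. Glucosinolate genes had 6 of 18 called lower, with a median of -0.75, close to the -0.76 on ribosomes. Of the 5 endoplasmic reticulum genes lower on ribosomes, BIP2, CRT1b, ATERDJ3B and UTR1 were also lower in total mRNA, and CNX1 was at -0.79 (adjusted p 0.0526, and 9.41e-05 without the total mRNA 6 h control 2, when 8 of the list were lower).

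Across the recovery, each time had its own controls. In ribosome-bound mRNA 10627 genes were called at 0 h (51%; 5372 higher, 25.8%, and 5255 lower, 25.2%), 5628 at 1 h (27%; 12.8% higher, 14.2% lower) and 2662 at 6 h (12.8%; 5.56% higher, 7.2% lower), the last against 2 controls. The effect at 3 h differed from that at 0 h in 8243 genes (39.5%), 3838 higher (18.4%) and 4405 lower (21.1%), and in 8586 (41.3%) without control 1. Of the 794 genes that rose at 3 h, 355 were also higher at 0 h (44.7% of the former and 6.61% of the 5372), 158 were lower at 0 h and 281 were not called then. Of the 1140 that fell at 3 h, 385 were also lower at 0 h (33.8%, and 7.33% of the 5255), 261 were higher at 0 h and 494 were not called. Without control 1, 233 of the 428 risen genes were higher at 0 h and 273 of the 586 fallen genes lower. Higher at all 4 times were 74 genes and lower at all 4 were 72 (69 and 58 without control 1).

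**Figure D5:**
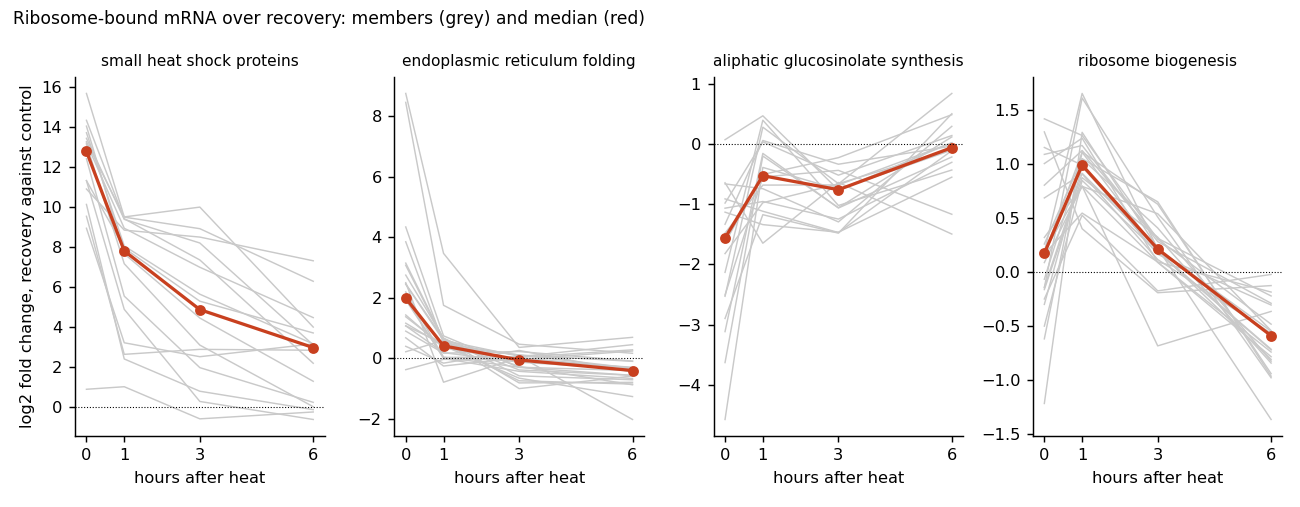
Log2 fold change in ribosome-bound mRNA, recovery against the controls of the same time, at 0, 1, 3 and 6 h after heat for 4 gene lists, with members in grey and the median in red. Each panel has its own vertical scale, and the median of small heat shock proteins goes from 12.77 at 0 h to 4.87 at 3 h while that of aliphatic glucosinolate synthesis goes from -1.56 to -0.76.

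The groups followed different courses. Small heat shock proteins were called higher in 16 of 16 at 0 h and at 1 h, 14 at 3 h and 10 at 6 h, and 15 were lower at 3 h than at 0 h by the test of the difference. HSP18.2 had log2 fold changes of 10.89, 8.84, 8.49 and 7.31 at 0, 1, 3 and 6 h. APX2 had 12.81, 9.97, 5.05 and 7.37, where the controls at 1 h and 6 h held 3 counts or fewer, so that the fitted values there are no firm sizes. The larger chaperones had 33 of 36 higher at 0 h and none lower, 23 and 4 at 1 h, 10 and 7 at 3 h, and 7 and 18 at 6 h. They, with the small ones, took 18.9 to 20.7% of the counts at 0 h, 3.26 to 3.79% at 1 h, 0.711 to 0.854% at 3 h and 0.415 to 0.485% at 6 h in the heated libraries, against 0.176 to 0.239% in the 3 h controls and 0.357% and 0.375% in the 6 h controls.

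Several genes that heat raised at 0 h were below their controls by 3 h. HSFA7A went from 5.71 at 0 h to -2.70 at 1 h, -2.39 at 3 h and -1.43 at 6 h. Hsp70-2 was higher at 0 h and went to -0.99, -2.30 and -2.17, and ROF1 went from 5.65 to 0.78, -1.07 and -0.78. Endoplasmic reticulum folding genes had 21 of 23 higher at 0 h and 12 at 1 h, none at 3 h and none at 6 h, when 11 were lower. Ribosome biogenesis genes had 22 of 23 higher at 1 h, 4 at 3 h and none at 6 h, when 15 were lower. Glucosinolate genes had 17 of 18 lower at 0 h, 10 at 1 h, 14 at 3 h and 2 at 6 h, and 11 of them were higher at 3 h than at 0 h by the test of the difference. LHY was lower at every time, with log2 fold changes of -1.26, -2.33, -3.78 and -2.79 and with control levels on total counts of 92.0 to 109 CPM at 0 h, 78.1 to 83.5 at 1 h and 27.2 to 39.8 at 3 h.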

How the data were processed

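Poly(A) RNA was sequenced from whole seedlings, 3 libraries in each group. The values are whole-number read counts per gene as deposited by the authors. Per the submitters' processing notes, cutadapt, FastQC, HISAT2 2.2.0 and the TAIR10 genome were used; no source used here gives the counting program, its strand setting or its treatment of reads matching several genes. Of 38194 gene identifiers in the deposited count table, 37751 matched RefSeq TAIR10.1, which supplied symbols, coordinates and promoters.

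Genes passed edgeR's filter (minimum count 10, minimum total 15), counts were TMM-scaled, and edgeR 4.0.16 (R 4.3.3) fitted robust quasi-likelihood models over 23 TRAP libraries, or over 47 libraries of both kinds for total mRNA and for ribosome-bound minus total (46 without the total mRNA 6 h control 2, chosen after seeing the data). The tests were two-sided, with Benjamini-Hochberg adjustment over all genes tested and a threshold of 0.05. An SE is the absolute log2 fold change over the square root of F. CPM are TMM-scaled except where said to be on total counts. Counting intervals are exact, at 95%, and cover counting error only, since reads carry no molecular identifiers. Alternatives were RLE scaling, no filter, DESeq2 1.42.0, a replicate block, organelle genes left out, other sets of libraries and each replicate left out.

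The 36 gene lists and the named genes were chosen with earlier results of these data known. The named genes were a fixed set, up to 4 called members of a list, and the 15 highest and 15 lowest calls that passed filters. The filters were a log2 CPM averaging 1 or more, every recovery library beyond every control, and a call kept without control 1. Members beyond that rule were named after their values were seen. No duplicate libraries were found. In simulated data, with 100 genes changed by each fold, the 3 h test recovered 74 of 2-fold and 98 of 4-fold changes with 8 false calls among 20527 genes. The test of ribosome-bound minus total recovered 39 and 87 among 21530 genes. The simulated libraries of a group shared 1 mean, so none stood apart as control 1 did, and genes of very low level were not among those changed. The rates do not cover such libraries or genes.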

Additional observations from a re-analysis of the deposited data

Results flagged for a closer look

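The effect of heat on ribosome-bound mRNA differed between 3 h and 0 h of recovery in 8243 genes, by edgeR's test of the difference itself. The lowest differences among the genes called in it with and without control 1 at a mean log2 CPM of at least 1 were those of AT5G51440 (-11.03), AT1G07400 (-10.04) and HSP23.6-MITO (-9.58), small heat shock protein genes, of AT5G25450 (-9.45), a mitochondrial respiratory subunit gene that was not called at 3 h, of HSP101 (-9.35) and of the small heat shock protein gene AT1G54050 (-9.33). HSP23.6-MITO and AT1G07400 were still above their controls at 3 h, with log2 fold changes of 4.447 and 3.096.

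The highest differences were those of AT3G03130 (7.91), ROPGEF6 (7.73), ETC1 (7.21), AT5G47980 (7.04), AT5G66230 (6.84) and AT1G33930 (6.49). In the heated libraries at 0 h AT5G66230 had 1 count and the other genes had none, so these fitted values are no sizes. At 0 h AT3G03130 was at least 35.4-fold lower than its controls, ROPGEF6 at least 33.7-fold, ETC1 at least 25.3-fold, AT5G47980 at least 25.6-fold and AT1G33930 at least 14.2-fold, against a floor of 3 counts over the group, and the ratio for AT5G66230 was 322 (exact interval 57.5 to 12776). None of the 6 was called at 3 h, when their log2 fold changes lay between -0.39 for AT5G47980 and 0.02 for AT3G03130.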

How the results depend on the processing

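Without 1 replicate in turn, the genes called 3 h after heat numbered 725 to 4993, with 316 to 2130 higher and 409 to 2863 lower. With only the 6 libraries compared, 103 genes were called, 48 higher and 55 lower. With all 24 TRAP libraries, the 6 h control with the raised share of small heat shock protein counts included, 462 were higher and 863 lower. RLE scaling gave 1952 calls, no filter 1751, organelle genes left out 2054 and DESeq2 2151. The difference from 0 h stayed within 1.5 times of 8243 under every alternative run. The difference between ribosome-bound and total mRNA numbered 0 to 627 without 1 replicate (0 to 136 higher, 0 to 491 lower), 354 without the filter (46 higher, 308 lower) and 2 with DESeq2. The cause of these shifts was not tested. Same-numbered samples were not paired by their labels, and their deviations from the group means correlated at 0.016, -0.042 and -0.005. With the replicate block 1689 genes were called. Of 143 results on single genes 37 lost their call without control 1. With only the 6 libraries compared, 69 lost it and 57 kept their side of the threshold, and with all 24 TRAP libraries 30 lost it. No called value changed sign under any alternative. Depths of 4193134 to 7567837 counts leave genes of a few CPM with few reads, as for HSFA2 (10 counts in the controls).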
